A study of Glycine max with 6 samples.

Results

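The genomic loci described here held a ChIP-seq peak of the soybean protein GLYMA.13G317000 in both biological replicates and no peak of GLYMA.06G314400 in either. Peaks of all 4 lists were joined into 70952 loci wherever they overlapped by 1 bp or more, and 1998 of these (2.82%) met the rule. They are called GLYMA.13G317000-only loci below, a name for what the peak lists hold. The read depth behind the lists is not known, so a missing GLYMA.06G314400 peak does not show that this protein was absent from the DNA. The presence of peaks chose the loci, and their GLYMA.13G317000 peak values are therefore given as descriptions, without tests.

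ChIP-seq, chromatin immunoprecipitation followed by sequencing, pulls down a protein with the DNA fixed to it and reads where in the genome that DNA came from. The tissue was the embryo of soybean (Glycine max, cultivar Williams 82) in early maturation, taken when seeds measured 6 to 7 mm, and it was fixed in 1% formaldehyde. For GLYMA.13G317000 the antibody (2 µg) recognised a peptide of its residues 1 to 15, and for GLYMA.06G314400 (3 µg) one of its residues 302 to 316, with 2 biological replicates each, and the 2 input samples, which were not precipitated, had no peak list. Both antibodies were raised against peptides, and the labels give no test of whether they also bind related proteins.

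As background, GLYMA.06G314400 and GLYMA.13G317000 belong to the basic leucine zipper family of transcription factors, whose members bind DNA as dimers at short sites built around the letters ACGT. Factors of this family that respond to abscisic acid act in seeds during maturation, when the embryo fills with storage protein and oil and prepares for drying. Genes and DNA sequence at the loci are not analysed here, because the sources used here do not give the build of the peak coordinates.

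The 1998 loci were a small part of what GLYMA.13G317000 bound. Loci with a peak in both of its lists numbered 37360, and 5.35% of them lacked any GLYMA.06G314400 peak. In the other direction, 4025 of the 48889 loci with both GLYMA.06G314400 lists, or 8.23%, lacked any GLYMA.13G317000 peak. The lists differ in length, with 60812 and 53281 peaks for GLYMA.06G314400 in replicates 1 and 2, against 58036 and 41859 for GLYMA.13G317000. Leaving out a list loosens the rule, so the counts of both directions rose by construction, by amounts that differed between the lists. The members became 3035 (7.98%) when GLYMA.06G314400 replicate 1 was left out and 2268 (6.07%) when its replicate 2 was, and 4364 (10.9%) or 5325 (9.49%) when replicate 1 or 2 of GLYMA.13G317000 was. The loci of the other direction became 14574 (29.8%) when GLYMA.13G317000 replicate 1 was left out, 4260 (8.71%) when its replicate 2 was, and 6047 (11.4%) or 10400 (17.1%) when replicate 1 or 2 of GLYMA.06G314400 was. Peaks in all 4 lists were found at 34119 loci. Between these kinds stood 976 loci with both GLYMA.13G317000 lists and a GLYMA.06G314400 peak in replicate 1 alone, and 267 with one in replicate 2 alone. Loci with a peak in a single GLYMA.13G317000 list and no other were more frequent than the members, with 3303 held by GLYMA.13G317000 replicate 1 alone and 2342 by replicate 2 alone. The member peaks made up 3.45% of the 58036 peaks of GLYMA.13G317000 replicate 1 and 4.78% of the 41859 of replicate 2.

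**Figure D1:**
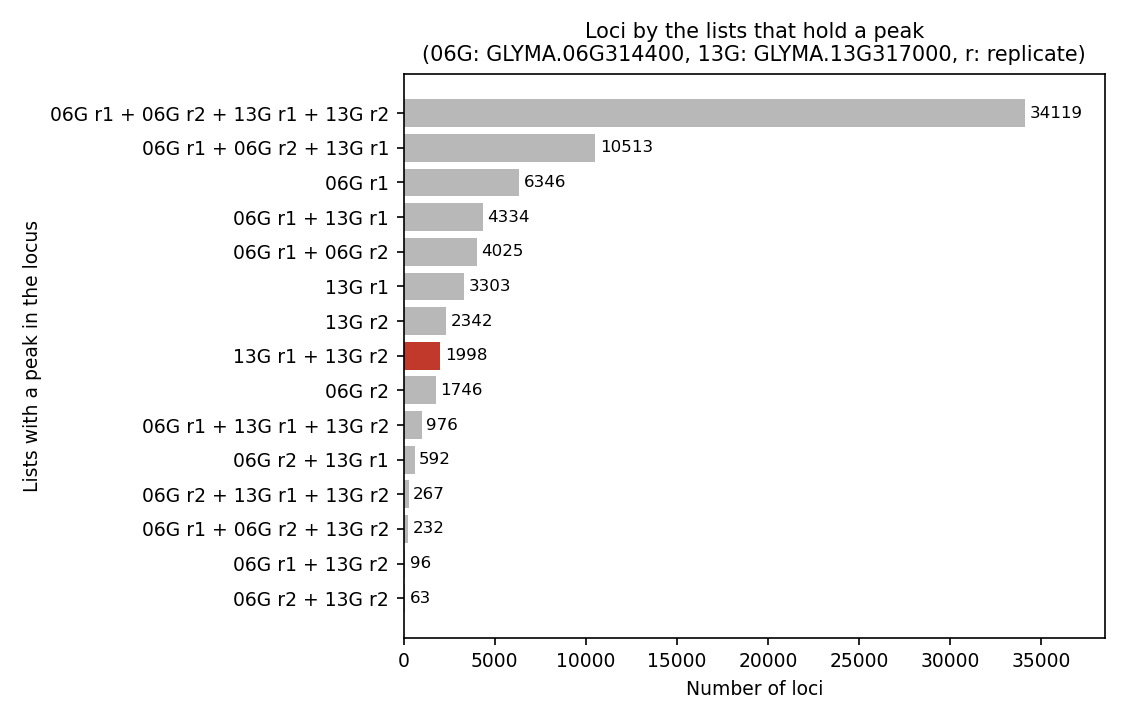
Number of loci (horizontal axis) for each combination of lists that hold a peak (vertical axis), where 06G is GLYMA.06G314400, 13G is GLYMA.13G317000 and r is the replicate. The red bar marks the 1998 GLYMA.13G317000-only loci, beside 34119 loci with peaks in all 4 lists and 4025 with GLYMA.06G314400 peaks only.

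The GLYMA.13G317000-only loci were weak in replicate 1 and of mixed strength in replicate 2. Fold enrichment, the authors' ratio of the fragments piled up at a peak's summit to the local background, ran from 1.57 to 8.67 in replicate 1, with a median of 3.64 and quartiles of 3.16 and 4.23. In replicate 2 it ran from 1.31 to 16.99, with a median of 4.77 and quartiles of 3.82 and 6.18. The medians of the whole lists were 5.54 and 5.38. Of the 1998 loci, 85 (4.25%) lay above the list's median in replicate 1, 750 (37.5%) did so in replicate 2, and 70 (3.50%) in both. The median member peak stood at the 19.4th percentile of the replicate 1 list and at the 40.9th percentile of the replicate 2 list. Low values were not particular to the members. By the lower value of both replicates, their median was 3.50. It was 3.59 and 3.62 for loci that also held GLYMA.06G314400 in replicate 1 or 2 alone. Loci with GLYMA.06G314400 peaks only had medians of 3.82 and 4.39 for that protein, against 5.96 and 7.18 in its whole lists.

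Most of these loci had peaks clear of the edge of detection, but a smaller share did so than of all loci with both GLYMA.13G317000 lists. Each list ended near a q of 0.01, that is, at a −log10 q of about 2. The members had a median −log10 q of 9.77 in replicate 1 and 15.5 in replicate 2, and 1832 (91.7%) reached at least 5 in both. A value of at least 10 in both was reached by 819 loci (41.0%), and of at least 20 by 119 (5.96%). Loci with peaks in all 4 lists had higher medians for GLYMA.13G317000, 48.8 in replicate 1 and 23.1 in replicate 2. With GLYMA.13G317000 peaks held to a −log10 q of at least 5, loci with both of its lists numbered 36487, against 37360 with all peaks. Members numbered 1832, against 1998. Their share of these loci thus fell from 5.35% to 5.02%, so the members lost the larger part at this limit. The median −log10 p of the members was 11.6 in replicate 1 of GLYMA.13G317000 and 17.7 in replicate 2. Of the GLYMA.06G314400 peaks, 17.5% in replicate 1 and 20.5% in replicate 2 lay below 11.6. Below 17.7 lay 32.2% and 37.0%. Because the depth of the lists is unknown, these shares do not show whether a GLYMA.06G314400 peak could have been called at the members.

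The share of GLYMA.13G317000-only loci depended on which replicate set the order. The 37360 loci with both GLYMA.13G317000 lists were divided into 10 groups of 3736 by fold enrichment. Ordered by replicate 1, the weakest group held 1326 members (35.5%), the next 457 (12.2%) and the one after it 153 (4.10%), while the 4 strongest groups held 0. Ordered by replicate 2, the share stayed between 6.61% and 8.27% over the 6 weakest groups. It then declined over the 4 strongest groups from 5.57% to 3.51%, 1.12% and 0.134%, and the strongest group still held 5 members. Ordered by the lower value of both replicates, the share declined at each step from 21.1% in the weakest group to 0.0803% in the eighth, and the 2 strongest groups held 0.

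**Figure D2:**
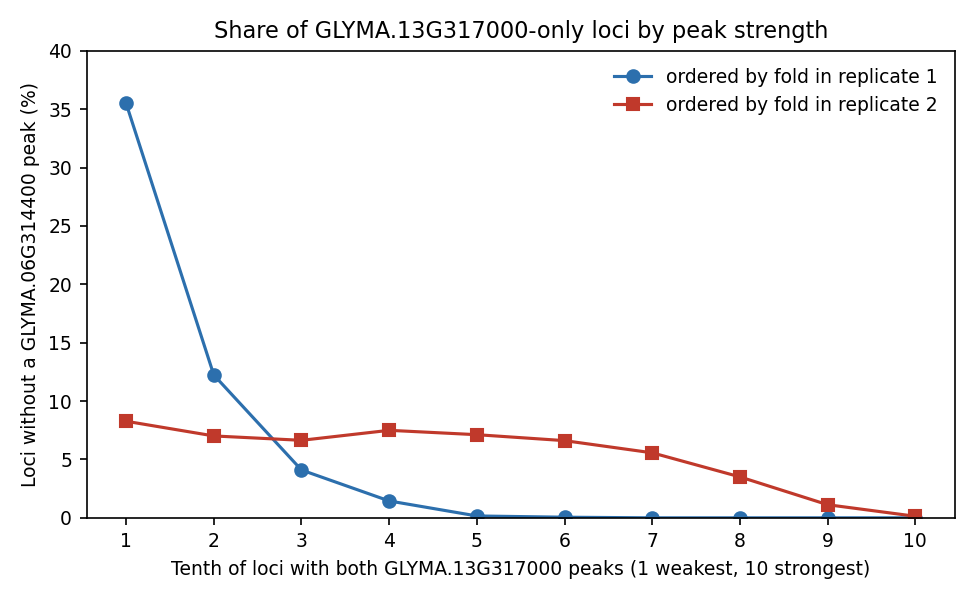
Percentage of loci without a GLYMA.06G314400 peak (vertical axis) in 10 equal groups of the loci with both GLYMA.13G317000 lists, from weakest to strongest (horizontal axis). With replicate 1 setting the order (blue circles) the share declines from 35.5% to 0, and with replicate 2 (red squares) it stays between 6.61% and 8.27% over the 6 weakest groups.

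The same difference between the replicates appeared when each locus was ranked among the same 37360 loci in both lists. The median rank of the members was at the 6.58th percentile in replicate 1 and at the 36.5th in replicate 2, and 1824 of 1998 (91.3%) ranked higher in replicate 2. The median difference, replicate 2 minus replicate 1, was 28.2 percentile points (quartiles 11.2 and 44.7). On single chromosomes the share that ranked higher in replicate 2 was 84.2% to 95.2%. Of the loci with peaks in all 4 lists, 44.7% ranked higher in replicate 2, with a median difference of −1.32 points.

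This shift moved with the GLYMA.06G314400 peaks in a way that depended on their replicate number. A higher rank in replicate 2 was found at 84.3% of the loci with a GLYMA.06G314400 peak in replicate 2 alone and at 62.0% of those with one in replicate 1 alone. Among loci whose lower fold enrichment was from 3 up to 4, the share was 90.6% of 1037 members, 78.4% of 139 loci with GLYMA.06G314400 in replicate 2 alone, 55.4% of 520 with it in replicate 1 alone, and 28.9% of 6344 loci with peaks in all 4 lists. This cut uses the values that are then ranked, and it leaves the groups unequal in replicate 1, where the median was 3.51 for the members and 5.05 for loci with all 4 lists. For the mirror class, the 4025 loci with GLYMA.06G314400 peaks only, ranks were taken among the 48889 loci with both of its lists. Of this class, 58.9% ranked higher in replicate 2 of GLYMA.06G314400, with a median difference of 2.61 points. Of the loci with all 4 lists, 51.0% did so, with a median difference of 0.172 points. The labels give the proteins the same 2 replicate numbers, and the part of the replicate in these differences was not tested.

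**Figure D3:**
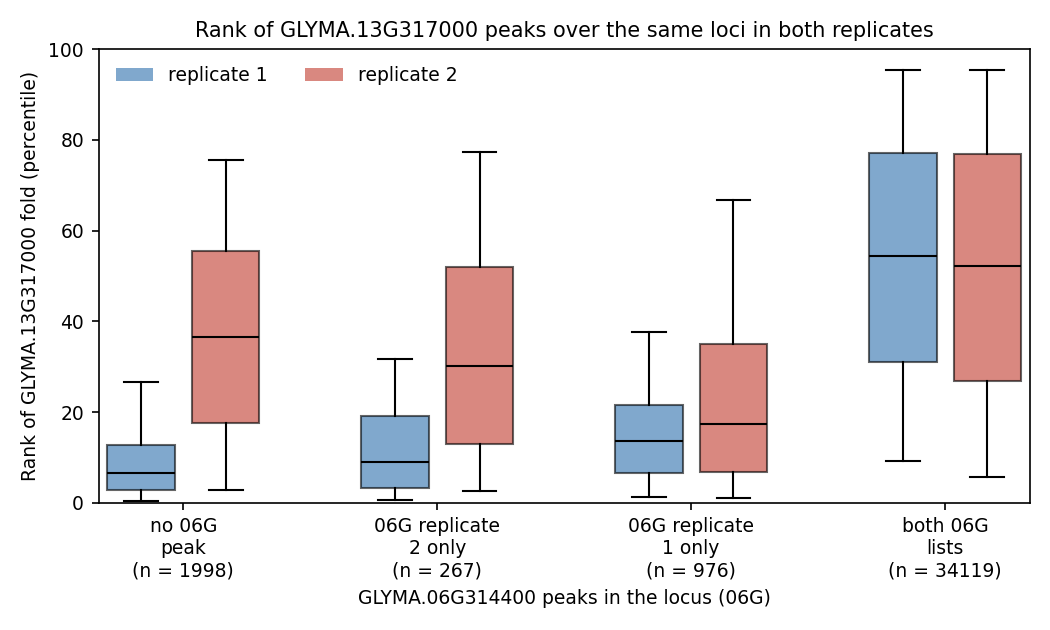
Rank of the GLYMA.13G317000 fold enrichment (vertical axis, percentile among the 37360 loci with both of its lists) in replicate 1 (blue) and replicate 2 (red), for loci grouped by their GLYMA.06G314400 peaks (horizontal axis). Boxes span the quartiles with the median as a line, and whiskers reach the 5th and 95th percentiles; loci without a GLYMA.06G314400 peak have medians of 6.58 and 36.5, and loci with both of its lists have 54.3 and 52.3.

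The strongest GLYMA.13G317000-only locus lay on chromosome 10 from 47313271 to 47313824, with fold enrichments of 8.67 in replicate 1 and 15.5 in replicate 2. The loci were ordered here by the lower value of both replicates. The next was on chromosome 12 from 2504692 to 2505186, with 7.88 and 10.1. Another locus on chromosome 10, from 42013612 to 42014126, had 7.81 and 11.4. These 3 stood at the 67.0th to 71.5th percentile of the replicate 1 list and at the 82.9th to 93.7th percentile of the replicate 2 list.

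A further 5 loci completed the upper end. The locus on chromosome 13 from 34077152 to 34077723 had 7.46 in replicate 1 and 12.04 in replicate 2, and the one on chromosome 4 from 51934335 to 51934923 had 7.37 and 9.29. On chromosome 3, the locus from 39469600 to 39470257 had 7.29 and 11.3. On chromosome 10, the locus from 49795479 to 49795965 had 7.17 and 7.11. The locus on chromosome 11 from 579842 to 580352 had 7.07 and 11.1. The summits of the replicates were 58, 3, 68, 32 and 5 bp from each other at these 5 loci, in this order. A lower fold enrichment of at least 6 was reached by 32 of the 1998 loci and one of at least 8 by 1.

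The highest replicate 2 values were found elsewhere, at 3 loci chosen after their values were seen. The locus on chromosome 2 from 1198918 to 1199685 had 5.86 in replicate 1 and 16.99 in replicate 2. On chromosome 4, the locus from 46424198 to 46425053 had 4.83 and 16.9, and on chromosome 17, the locus from 8398661 to 8399243 had 6.06 and 16.8. All 3 stood near the 95th percentile of the replicate 2 list, at 95.3, 95.1 and 95.1, but at 53.3, 41.2 and 55.0 in replicate 1. Their nearest GLYMA.06G314400 peaks began 102, 289 and 588 bp away.

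At the weak end, the locus on chromosome 13 from 16858789 to 16859435 had 1.57 in replicate 1 and 1.31 in replicate 2. The locus on chromosome 17 from 11612929 to 11613404 had 1.95 and 4.78, and its replicate 1 peak had a −log10 q of 2.02, at the edge of its list. On chromosome 16, the locus from 35506377 to 35506650 had 2.32 and 2.02.

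With no GLYMA.06G314400 peak to bridge them, the replicate peaks of a member overlap by the rule, so their overlap is given as a description. Exactly 1 peak in each list was found at 1990 of the 1998 loci, while 6 held 2 peaks of replicate 1 and 2 held 2 peaks of replicate 2. The replicate peaks overlapped by at least 50% of the shorter peak at 1994 loci, and the shorter peak lay wholly inside the longer at 1076 (53.9%). Summits were a median of 33 bp apart (quartiles 16 and 60 bp), within 50 bp at 67.3% of loci and over 200 bp apart at 20 loci. At loci with peaks in all 4 lists the GLYMA.13G317000 summits were a median of 20 bp apart, with 82.9% within 50 bp. With a lower fold enrichment from 3 up to 4, the medians were 32 bp for the members and 30 bp for the loci with all 4 lists, and 68.9% and 70.4% lay within 50 bp.

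The loci were narrow beside loci with peaks in all 4 lists, but not beside the other kinds. Their median width was 384 bp (quartiles 331 and 452 bp), against 693 bp for loci with all 4 lists, which are unions of more peaks. Loci with GLYMA.06G314400 peaks only had 388 bp. Loci with both GLYMA.13G317000 lists and GLYMA.06G314400 in replicate 1 or 2 alone had 441 and 399 bp. Loci held by GLYMA.13G317000 replicate 1 or 2 alone, with a single peak list each, had 271 and 279 bp. In peaks of GLYMA.13G317000 alone, the members had median widths of 313 bp in replicate 1 and 353 bp in replicate 2, where loci with all 4 lists had 521 and 390 bp. The replicate 2 peak was the wider one at 68.4% of the members. The widest members lay on chromosome 13, from 38829565 to 38831405 (1841 bp, fold enrichments of 2.63 and 3.98) and from 31415745 to 31417564 (1820 bp, 2.80 and 5.55). A width of 1000 bp or more was reached by 5 members.

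GLYMA.13G317000-only loci lay among the other sites. The gap to the nearest GLYMA.06G314400 peak had a median of 1962 bp (quartiles 779 and 4433 bp), and 1823 members (91.2%) had such a peak within 10000 bp. For comparison, loci with peaks in all 4 lists had a median gap of 1902 bp to the nearest other locus with a GLYMA.06G314400 peak, and loci with GLYMA.06G314400 peaks only had 2270 bp to the nearest locus with a GLYMA.13G317000 peak. The nearest locus with a GLYMA.06G314400 peak held all 4 lists for 54.8% of the members, where 53.9% of all such loci on chromosomes did. Members within 500 bp of a GLYMA.06G314400 peak numbered 312 and those over 10000 bp away 175. Median fold enrichments were 3.68 and 5.15 in replicates 1 and 2 for the former and 3.59 and 4.24 for the latter.

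The limits of the rule were seldom close. Just inside it, the locus on chromosome 19 from 44950215 to 44950715 ended 2 bp from a GLYMA.06G314400 peak, with GLYMA.13G317000 fold enrichments of 4.03 and 5.15. The loci on chromosome 4 from 853605 to 853940 (2.86 and 5.41) and on chromosome 13 from 28259171 to 28259542 (2.86 and 4.32) were each 6 bp from one. A gap of 100 bp or less was found at 41 members. Just outside the rule, the locus on chromosome 12 from 4031955 to 4033260 held GLYMA.06G314400 peaks that covered 2 bp of a GLYMA.13G317000 peak. Fold enrichment there was 2.95 (replicate 1) and 3.12 (replicate 2) for GLYMA.06G314400. For GLYMA.13G317000 it was 4.59 and 11.1. The next were on chromosome 12 from 33263725 to 33264774, with 29 bp covered, and on chromosome 11 from 6988987 to 6989931, with 64 bp. Of 35168 loci on chromosomes outside the rule with both GLYMA.13G317000 lists, 5 had a cover of 100 bp or less.

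Some members stood far from any GLYMA.06G314400 peak. The largest gap was 161145 bp, at the locus on chromosome 4 from 21123245 to 21123636, with a fold enrichment of 3.34 in replicate 1 and 5.70 in replicate 2. On chromosome 10, the locus from 31006000 to 31006508 was 109769 bp from one and had 5.39 and 9.61. The weak locus on chromosome 16 from 35506377 to 35506650, named above, was 103717 bp away.

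Members were mostly spread singly over the chromosomes, with 1 dense stretch. Neighbouring members were a median of 74292 bp apart, and 89 of 1996 (4.46%) had another within 2000 bp. The closest pairs had gaps of 46 bp (chromosome 13, 18197253 to 18197671 and 18197718 to 18198284), 69 bp (chromosome 9, 38411342 to 38411646 and 38411716 to 38412061) and 76 bp (chromosome 13, 38825869 to 38827299 and 38827376 to 38827777). Windows of 100000 bp held no member in 7922 cases, 1 in 1228, 2 in 297, 3 in 38, 4 in 10 and 5 in 1. A single window, on chromosome 13 from 38800001 to 38900000, held 11.

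These 11 loci lay between 38810635 and 38873486, a stretch of 62.9 kb, and 8 of them fell between 38825869 and 38839872, within 14.0 kb that held 1 locus with GLYMA.06G314400 peaks. They were low and, in part, broad. Fold enrichments were 2.06 to 3.74 in replicate 1 (median 2.54) and 2.36 to 4.52 in replicate 2 (median 2.97), and −log10 q was 5.96 to 19.7 and 8.06 to 32.0. Widths ran from 292 to 1841 bp with a median of 594 bp, and 3 of the 5 members of 1000 bp or more were here. Over the stretch, GLYMA.13G317000 peaks covered 19.5 kb in replicate 1 and 20.3 kb in replicate 2, in 26 and 24 peaks. GLYMA.06G314400 peaks covered 6.31 and 4.95 kb, in 10 peaks each.

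The same stretch held the widest of all 70952 loci, from 38843375 to 38848399, which is not a member. It measured 5025 bp, and GLYMA.13G317000 reached 5.67 there in replicate 1 and 5.02 in replicate 2, where its peak spanned 5015 bp. GLYMA.06G314400 had 1 peak per list in it, of 509 and 434 bp, with fold enrichments of 3.67 in both. The stretch was singled out after its values were seen.

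**Figure D4:**
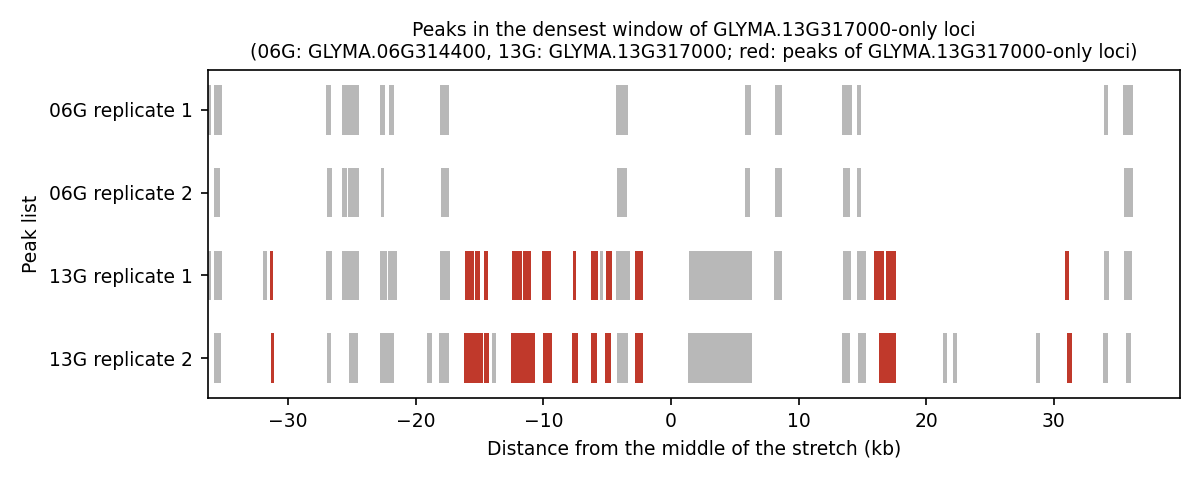
Peaks of the 4 lists (vertical axis; 06G is GLYMA.06G314400, 13G is GLYMA.13G317000) by distance in kb from the middle of the 62.9 kb stretch on chromosome 13 (horizontal axis). Red bars are the peaks of the 11 GLYMA.13G317000-only loci and grey bars all other peaks; 8 of the 11 loci stand in a run of 14.0 kb left of the middle, next to the grey peaks of the 5025 bp locus.

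Like the loci of the other kinds, GLYMA.13G317000-only loci were concentrated in the outer parts of the chromosomes. These parts, 20% of the length on either side and 40% together, held 75.1% ± 11.8 of them (SD over 20 chromosomes) and 69.7% ± 10.8 of the loci with peaks in all 4 lists. The share of members was higher on 18 of 20 chromosomes, by 5.45 ± 4.79 percentage points on average (SD). The largest differences were on chromosome 11, with 78.0% against 62.7%, and on chromosome 1, with 89.2% against 76.2%. Chromosome 17 had the largest difference in the other direction, with 59.0% against 64.1%, and chromosome 2 had 71.1% against 71.2%. On chromosome 13, the outer parts held 36.2% of the members and 33.2% of the loci with all 4 lists.

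Pooled over chromosomes, the outer parts held 73.6% of 1992 members, 68.4% of the loci with all 4 lists and 68.2% of those with GLYMA.06G314400 peaks only. All loci with both GLYMA.13G317000 lists had 68.5%. When GLYMA.13G317000 replicate 2 was left out, which enlarged the set of members, their share was 68.8%. Loci with both GLYMA.13G317000 lists and GLYMA.06G314400 in replicate 1 alone had 64.0%, and those with it in replicate 2 alone 68.3%. With a lower fold enrichment from 3 up to 4, the members had 72.3% and the loci with all 4 lists 68.8%. The difference was not tested, since loci are not replicates. Members over 10000 bp from a GLYMA.06G314400 peak were in the outer parts in 46.3% of cases, against 75.6% of those within 500 bp. The other kinds of loci were not split in this way, so the contrast is not shown to be particular to the members.

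**Figure D5:**
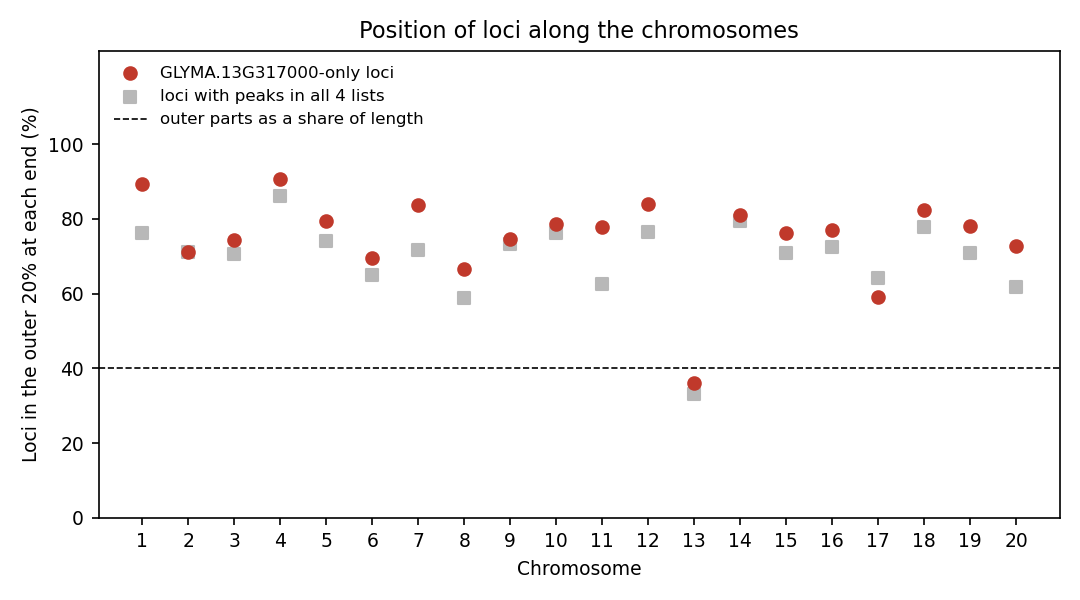
Percentage of loci in the outer 20% at each chromosome end (vertical axis) on each of the 20 chromosomes (horizontal axis), for GLYMA.13G317000-only loci (red circles) and loci with peaks in all 4 lists (grey squares), with the 40% of length that the outer parts make up as a dashed line. The red circle is higher on 18 of 20 chromosomes, and on chromosome 13 both lie below the line.

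By number, chromosome 13 held the most members, 163 (3.56 per Mb), followed by chromosome 17 with 122 and chromosome 10 with 121. Chromosome 9 held the fewest, 63 (1.26 per Mb), and the mean was 2.14 ± 0.606 per Mb (SD over 20 chromosomes). Scaffolds outside the chromosomes held 6 members. Set against the loci with both GLYMA.13G317000 lists on the same chromosome, members made up 5.35% ± 0.713 (SD over 20 chromosomes). This share was lowest on chromosome 9, at 3.47% of 1817 loci, and highest on chromosome 11, at 6.25% of 1888. Chromosome 13 stood at 5.93% of 2750, so its high number of members went with a high number of GLYMA.13G317000 loci in all.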

How the data were processed

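The 4 peak lists came from Bowtie 0.12.7 and MACS2, per the submitters' processing notes. The sources used here do not give the genome build, the MACS2 version, the control behind a call or how duplicate reads were treated. Replicates were called separately, 1 deposited list per ChIP sample. The deposited columns used per peak are the fold enrichment (a ratio at its summit), −log10 p and −log10 q, and the summit position. A deposited score was not used. These are the authors' values. Heights of different lists are given side by side, and replicates were compared by rank over the same loci.

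Peaks were joined where they overlapped by 1 bp or more, with Python 3.11.15 and pandas 2.3.3. The routine was tested on simulated lists and gave the same loci as bedtools 2.31.1. The highest peak of a list stood for it in a locus. Gaps are bp between the edges, and coordinates count from 1. The last peak end stood for the chromosome length.

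No test was made: the rule used the peaks, and loci are not replicates. The loci, groups and measures were chosen with earlier results of these data known. The rule for named items took, on chromosomes, the 8 highest and 3 lowest loci by the lower fold enrichment, 3 each nearest to, farthest from and just touched by GLYMA.06G314400 peaks, the 2 widest and the 3 closest pairs.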

Additional observations from a re-analysis of the deposited data

How the results depend on the processing

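The count of 1998 loci stayed within 1.5 times under 8 of 12 alternatives, from 1336 with gaps up to 1000 bp joined to 2268 without GLYMA.06G314400 replicate 2. Leaving out GLYMA.06G314400 replicate 1 gave 3035, and leaving out replicate 1 or replicate 2 of GLYMA.13G317000 gave 4364 or 5325, where by construction fewer lists set the rule. The share of 5.35% became 5.02% with only GLYMA.13G317000 peaks held to a q of 1e-05, 4.05% with gaps up to 1000 bp joined, and 6.07% to 10.9% when a list was left out. In a replicate block, with each list set only against the same-numbered one, the mean was 5886 loci and 12.3%, and the labels do not say what a number marks. Over the 34119 loci with all 4 lists, the rank differences between replicates of both proteins had a correlation of 0.476 across loci. This value comes from 2 pairs of lists only, loci are not replicates, and its cause was not tested. The median lower fold enrichment of 3.50 was 3.41 to 4.22 under 7 alternatives, and the summit distance 32 to 34 bp under 5. The outer share was 68.8% to 73.1% without single lists, and 42.8% and 22.0% in the outer 10% and 5% at each end, where loci with all 4 lists had 39.2% and 19.9%. The median gap was 2094 bp with gaps up to 200 bp joined, 2516 bp to GLYMA.06G314400 replicate 2 peaks, and 1982 to 2401 bp without single lists. Ranked by −log10 p, 93.0% of the members stood higher in replicate 2. Ranked by fold enrichment, 81.6% did so without GLYMA.06G314400 replicate 1 and 90.4% without its replicate 2. The cause of these shifts was not tested. Leaving lists out of the medians, the outer share and the share of the other direction, the alternatives for rank, and omission of the fullest window, which left 1987 loci, were chosen after the data were seen. Depth is unknown and limits what a missing peak can show.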
